A study of Homo sapiens with 12 samples.

Results

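The collagens and the enzymes that finish them were followed in T47D cells, an established estrogen receptor–positive luminal breast cancer line, under an aromatase inhibitor, under estradiol (E2) and under both. The genes were taken from the count table by symbol: every collagen chain gene (COL, a number, A, a number) and 11 named enzymes and chaperones (P4HA1, P4HA2, P4HB, PLOD1, PLOD2, PLOD3, SERPINH1, LOX, LOXL1, LOXL2 and BMP1), provided at least 1 count was present in any library. This rule gave 55 genes, 44 collagen chains and 11 processing genes, of the 21132 genes with at least 1 count and the 25370 genes in the table. Expression was measured by RNA-seq in 12 libraries of 4 groups with 3 replicates each (a, b and c): vehicle, which held neither agent, anastrozole at 10 nM, E2 at 0.1 nM, and the combination of anastrozole at 10 nM with E2 at 0.1 nM. Cells of all groups had first been kept for 48 hours in medium with 5% charcoal-stripped serum and then for 24 hours without serum, and the labels give 12 hours of treatment. The study's methods give a longer treatment, and which time applies to these libraries is not settled here. All libraries came from 1 cell line, and nothing in the labels says that replicates were separate cultures, so that p-values measure only the spread between these libraries.

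Collagens are built from triple helices of 3 chains. In the endoplasmic reticulum, prolyl 4-hydroxylase (catalytic subunits P4HA1 and P4HA2 with the shared partner P4HB) hydroxylates proline, which lets the helix stay folded at body temperature, and the lysyl hydroxylases PLOD1, PLOD2 and PLOD3 modify lysine for later crosslinking. HSP47, the product of SERPINH1, is a chaperone for the folded helix, the proteinase BMP1 trims secreted procollagen, and the lysyl oxidases LOX, LOXL1 and LOXL2 start the crosslinks between molecules. In breast tumors most fibrillar collagen is made by fibroblasts, whereas epithelial cells contribute basement membrane chains. The hydroxylases use oxygen as a substrate, and P4HA1, P4HA2, PLOD2 and LOX are known targets of the hypoxia-inducible factors.

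Counts on genes ranged from 9914253 to 17009776 per library (median 13538621), and 3 counts, used here as the detection floor, correspond to 0.177 to 0.303 CPM (counts scaled to library size, normalized with the trimmed mean of M values, TMM). No replicates were identical or closer than sampling noise. The luminal identity of the cells was checked with 14 markers, including ESR1, GATA3 and KRT8, and all 14 had at least 3 counts in every library. By edgeR 3 of them (21.4%) were called lower with anastrozole, 8 (57.1%) with E2 and 1 (7.14%) with the combination, and 0 were called higher. Calls in either direction made up 3.67%, 12.0% and 5.04% of all genes in the same comparisons. The 8 with E2 included ESR1, FOXA1 and KRT8. With the GC trend removed 6 of the 14 (42.9%) were lower with E2, next to 7.53% of all genes called in either direction. ESR1 and FOXA1 were among these 6, and KRT8 was not. In the same setting 3 of 14 (21.4%) were called with anastrozole, PGR and TFF3 lower and GATA3 higher, next to 2.91% of all genes. The combination had 1 (7.14%), SPDEF, which was lower, next to 6.02% of all genes. Of 14 fibroblast and mesenchymal markers, POSTN had 0 counts and PDGFRA, DCN, FAP and PRRX1 stayed under 3 counts in each of the 12 libraries, while 7 had at least 3 counts in every library, TAGLN with 140 to 274 and ACTA2 with 86 to 197. VIM was called higher with E2 and with the combination, and ACTA2 with the combination; with the GC trend removed the call of VIM with E2 was lost and both calls with the combination remained. The summed fibroblast list lay at 29.6 to 31.0 CPM in vehicle, 31.0 to 32.9 with anastrozole, 30.6 to 33.0 with E2 and 35.6 to 36.0 with the combination, and the summed luminal list at 13330 to 13520, 12270 to 13170, 12680 to 12890 and 12980 to 13220 CPM in the same order. Of 8 endothelial and blood markers HBB had 0 counts, PECAM1, CDH5, KDR and CD3E stayed under 3 counts in each library, and CD68, a macrophage marker, was called higher with anastrozole and with E2, also with the GC trend removed, and with the combination in the latter setting alone. The sum of this list was 3.65 to 5.21 CPM in vehicle, below all libraries with anastrozole (5.76 to 7.57), E2 (5.32 to 6.18) and the combination (5.29 to 5.93). Of the 8 markers only 1 had at least 3 counts in every library, so that this sum rests on few genes. The part of these differences in the marker lists in the collagen results below was not tested. In bulk RNA, fewer cells that express a gene and less RNA per cell cannot be told apart.

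The genes whose levels changed against vehicle included 4 known hypoxia-inducible factor targets, so the 250 bases before the RefSeq transcription start were searched for the core of the hypoxia response element (ACGTG or GCGTG, on either strand). The windows of P4HA1, PLOD2, LOX and COL5A1, which hold the core and belong to genes called below, are printed 5′ to 3′ on the gene's strand, with each core in capitals; capitals that read CACGT are ACGTG on the other strand. The positions are chr10:73096867-73097116 (− strand) for P4HA1, chr3:146161185-146161434 (− strand) for PLOD2, chr5:122078260-122078509 (− strand) for LOX and chr9:134641553-134641802 (+ strand) for COL5A1, all in GRCh38.p14 and with the sequence from RefSeq.
P4HA1: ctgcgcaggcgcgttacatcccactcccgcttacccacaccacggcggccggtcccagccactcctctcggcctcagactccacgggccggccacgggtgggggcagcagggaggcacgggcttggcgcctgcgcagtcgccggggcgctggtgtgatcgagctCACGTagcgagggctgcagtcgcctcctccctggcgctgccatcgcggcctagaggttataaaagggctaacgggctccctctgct
PLOD2: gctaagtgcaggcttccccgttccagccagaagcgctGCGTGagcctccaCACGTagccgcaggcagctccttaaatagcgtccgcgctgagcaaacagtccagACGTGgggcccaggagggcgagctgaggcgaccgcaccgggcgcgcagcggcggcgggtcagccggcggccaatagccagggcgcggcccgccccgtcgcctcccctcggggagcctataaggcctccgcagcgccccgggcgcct
LOX: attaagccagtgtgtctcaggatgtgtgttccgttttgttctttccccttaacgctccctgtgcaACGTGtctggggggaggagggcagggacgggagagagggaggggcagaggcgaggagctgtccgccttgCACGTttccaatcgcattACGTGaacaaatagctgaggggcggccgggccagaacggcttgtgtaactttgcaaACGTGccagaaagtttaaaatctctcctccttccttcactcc
COL5A1: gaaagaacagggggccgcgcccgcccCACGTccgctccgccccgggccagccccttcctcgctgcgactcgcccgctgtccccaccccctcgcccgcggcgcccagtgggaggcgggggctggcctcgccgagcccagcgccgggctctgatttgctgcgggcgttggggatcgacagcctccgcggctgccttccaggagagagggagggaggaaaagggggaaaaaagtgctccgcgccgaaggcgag
The window of P4HA1 held 1 core, that of PLOD2 3, that of LOX 4 and that of COL5A1 1. The same windows of P4HA2 and COL27A1, whose levels also rose, held 0, and that of COL12A1, called with E2 only, held 2. Of the 41 collagen and processing genes with a RefSeq promoter, 18 (43.9%) held at least 1 core, next to 43.1% of all 27305 promoter windows of this length, so that the core was as common among these genes as among promoters in general. The consensus estrogen response element (GGTCA, any 3 bases and TGACC in a row, which is its own reverse complement) was in 0 of the 41 windows and in 12 (0.0439%) of all windows. Its half-site GGTCA alone was in 33.1% of all windows. Among the 4 printed windows, that of PLOD2 held 1 half-site and those of P4HA1, LOX and COL5A1 held 0. A match describes these letters only, and its absence says nothing about a factor.

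Levels differed by several orders of magnitude in vehicle-treated cells, with processing genes at the top. Because longer transcripts collect more counts, levels of different genes were compared as CPM per kilobase of the canonical transcript. P4HB, which is also protein disulfide isomerase and serves many proteins besides collagen, was highest at 632 ± 17.2 CPM per kilobase (SD, n = 3). PLOD2 (102.5 ± 4.20) and the type XII collagen chain COL12A1 (93.4 ± 4.05) followed. SERPINH1 (67.9 ± 3.88) and P4HA1 (67.3 ± 2.58) differed by less than their spread, and PLOD1 was next at 37.4 ± 0.944. P4HA2 lay at 17.9 ± 0.457 CPM per kilobase. Among other collagens, COL1A1 reached 15.9 ± 0.367 CPM per kilobase, COL4A5 13.4 ± 0.615, COL18A1 11.3 ± 0.756 and COL7A1 6.48 ± 0.0873. COL7A1 and COL9A2 (6.32 ± 0.356) did not differ beyond their spread. The lysyl oxidases were low, with LOX at 0.784 ± 0.166 and LOXL1 at 0.546 ± 0.137 CPM per kilobase.

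**Figure D1:**
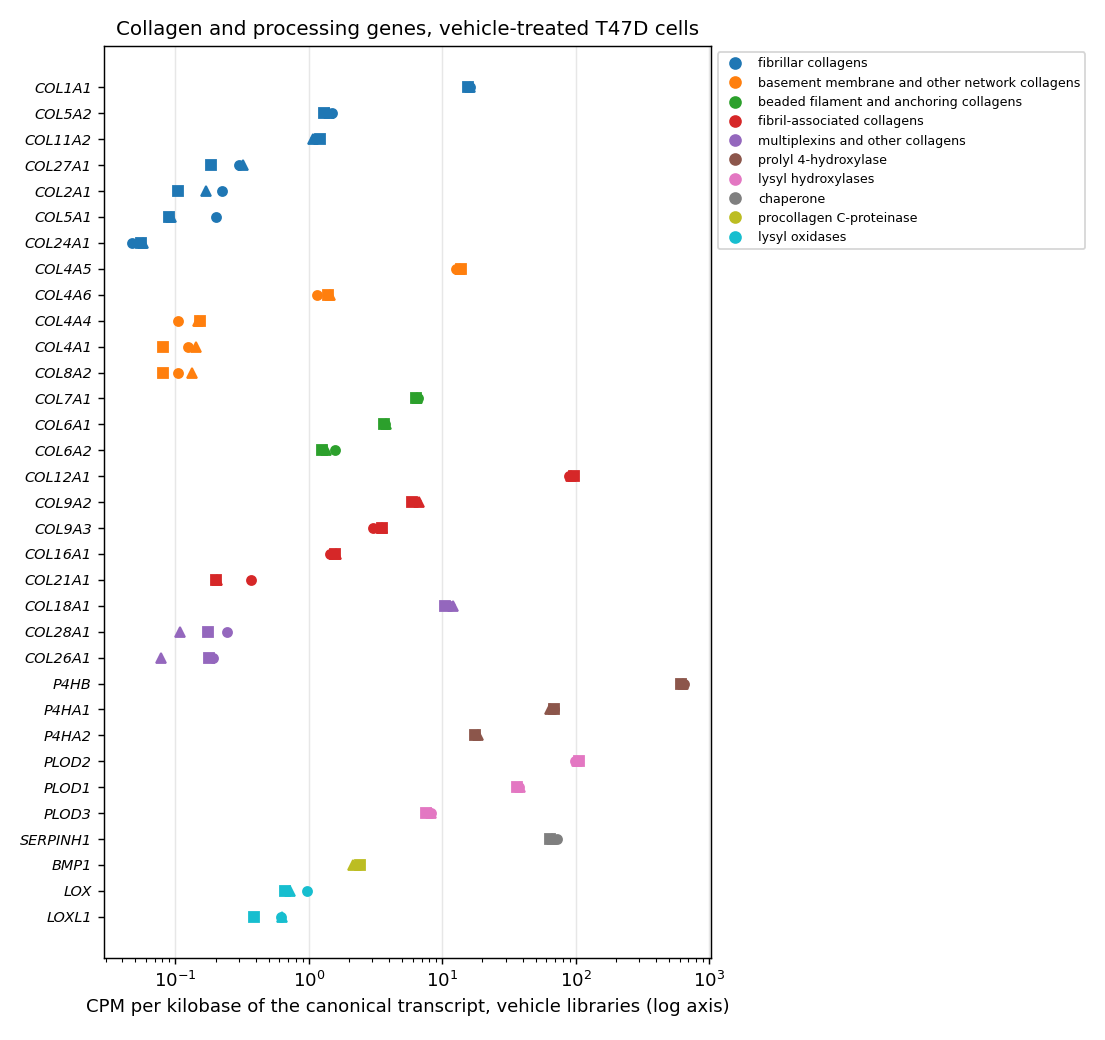
Level of each collagen and processing gene with at least 3 counts in every library, in the 3 vehicle libraries (CPM per kilobase of the canonical transcript, log axis; circle, square and triangle mark replicates a, b and c; colors mark roles). P4HB stands highest at 632 CPM per kilobase, COL12A1 is the highest collagen chain at 93.4, and COL5A1, COL27A1 and the lysyl oxidases lie under 1.

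Collagen RNA in these cells was mostly COL12A1. This fibril-associated chain, which sits on the surface of collagen fibrils, took 71.9% to 75.9% of all CPM on collagen chains, and 55.6% to 60.4% when each chain was counted per kilobase. The summed level of the 44 chains was 1492 ± 44.1 CPM in vehicle, 1493 ± 21.8 with anastrozole, 1556 ± 11.3 with E2 and 1568 ± 69.1 with the combination (SD, n = 3). Without COL12A1 the sums were 396 ± 7.55, 400.5 ± 20.1, 382 ± 3.69 and 421 ± 4.0 CPM in the same order.

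Some chains were present with hardly any RNA for a usual partner. COL1A1 had 14923 counts over the 12 libraries and its type I partner COL1A2 had 5. Of the type IV chains of basement membrane, COL4A5 had 14038 counts and its partner COL4A6 1578, but the widespread pair COL4A1 and COL4A2 had 89 and 22. COL6A1 and COL6A2 had 2731 and 924 counts while the third type VI chain, COL6A3, had 35. Type IX chains COL9A2 and COL9A3 had 2643 and 1426 counts and COL9A1 4, and COL11A2 had 1306 counts next to 1 for COL11A1. Thus the cells carried RNA for COL1A1 and COL11A2 with hardly any for COL1A2 and COL11A1. In all, 33 of the 55 genes had at least 3 counts in every library and 14 in some libraries only. The other 8, COL1A2, COL3A1, COL8A1, COL9A1, COL11A1, COL19A1, COL22A1 and COL25A1, stayed under 3 counts in each library, so that a change in them was not detectable at this depth.

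The first question was what each agent did on its own and together against vehicle. All calls here were to higher levels: 3 of 55 genes with anastrozole, 7 with E2 and 6 with the combination, by the quasi-likelihood test of edgeR at a threshold of 0.05 after Benjamini-Hochberg adjustment over all genes. These are 5.45%, 12.7% and 10.9% of the genes, next to 3.67%, 12.0% and 5.04% of all genes tested in the same comparisons. Counting higher calls only, the shares of all genes were 1.4%, 6.06% and 2.71%. The median log2 fold change of the 55 genes was 0.01 with anastrozole, 0.01 with E2 and 0.16 with the combination, and that of all genes was 0.00 in each. Of the 11 processing genes 2 rose with anastrozole (P4HA1, LOX), and 4 each with E2 and with the combination (P4HA1, P4HA2, PLOD2, LOX). Of the 44 collagen chains 1, 3 and 2 rose. The 3 comparisons share the vehicle libraries and are therefore given side by side, not as independent repeats.

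**Figure D2:**
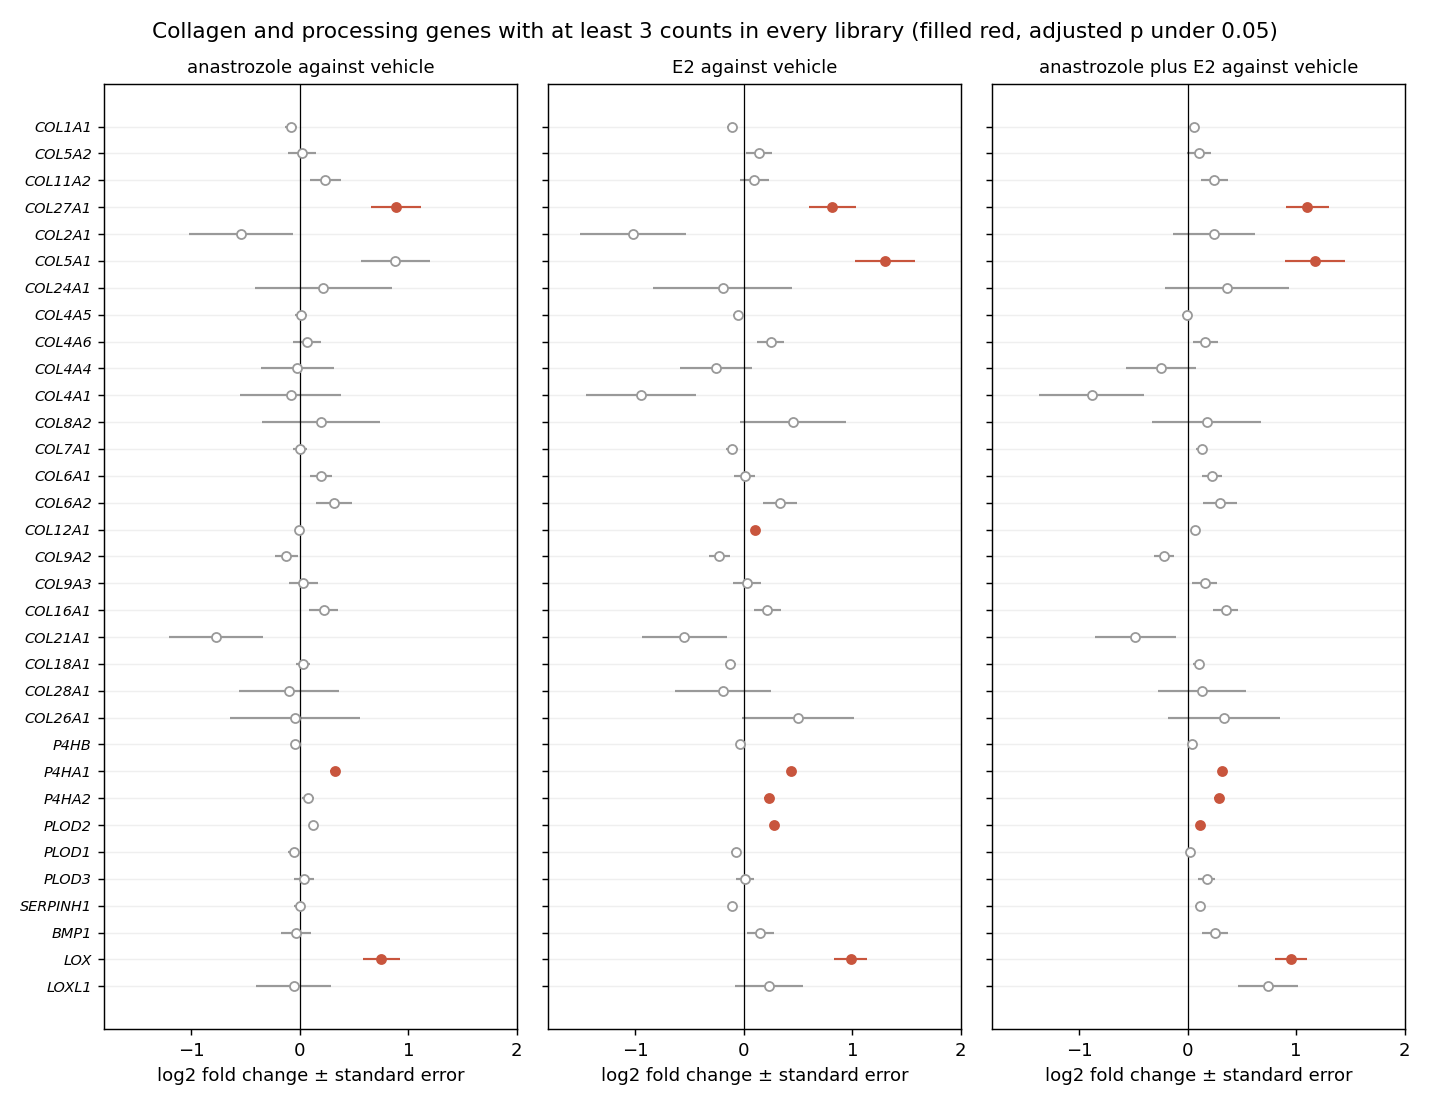
Log2 fold change against vehicle (± standard error, edgeR, 3 libraries per group) of the 33 genes with at least 3 counts in every library, for anastrozole, E2 and the combination; filled red points have an adjusted p under 0.05. All red points lie to the right of 0: 3 with anastrozole, 7 with E2 and 6 with the combination.

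Among the prolyl 4-hydroxylase subunits, P4HA1 (chr10:74766975-74856732, hg19) rose under every treatment. Its level was 188, 190 and 177 CPM in the vehicle libraries (in the order a, b, c, as for all genes), 242, 224 and 226 with anastrozole, 248, 245 and 256 with E2, and 227, 232 and 230 with the combination. Every treated library was above every vehicle library. The log2 fold change was 0.32 ± 0.05 (SE) with anastrozole (adjusted p = 3.5e-09, edgeR), 0.43 ± 0.04 with E2 (adjusted p = 6.8e-31) and 0.32 ± 0.04 with the combination (adjusted p = 4.1e-14). Each of these calls was kept without any single library, and limma-voom did not make the call with anastrozole. P4HA2 (chr5:131525840-131631008), the other catalytic subunit, lay at 80.1, 80.3 and 83.8 CPM in vehicle, 87.7, 85.0 and 84.5 with anastrozole, 94.9, 94.5 and 96.8 with E2 and 99.7, 99.2 and 98.5 with the combination. It rose with E2 (log2 fold change 0.23 ± 0.05, adjusted p = 2.9e-05, edgeR) and with the combination (0.28 ± 0.05, adjusted p = 1.5e-07), and the value with anastrozole alone was 0.08 ± 0.06 (adjusted p = 0.59). P4HB, the shared subunit, did not pass the test in any comparison: its means were 1541 ± 41.9 CPM in vehicle, 1493 ± 53.4 with anastrozole, 1504 ± 24.4 with E2 and 1580 ± 5.37 with the combination (SD, n = 3). The ratio of P4HB to P4HA1 per kilobase was 9.40 ± 0.539 in vehicle, 7.30 ± 0.544 with anastrozole, 6.79 ± 0.241 with E2 and 7.74 ± 0.0881 with the combination, so that its values with each treatment lay below those in vehicle by more than the SD.

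Of the lysyl hydroxylases only PLOD2 (chr3:145752926-145881512), which hydroxylates the telopeptide lysines, passed the test against vehicle. PLOD2 counted 368, 399 and 386 CPM in vehicle, 435, 419 and 402 with anastrozole, 461, 463 and 472 with E2 and 401, 422 and 421 with the combination. All treated libraries were above all vehicle libraries, and E2 libraries were above all others. The log2 fold change was 0.28 ± 0.03 with E2 (adjusted p = 8.9e-16, edgeR), 0.11 ± 0.03 with the combination (adjusted p = 0.03) and 0.12 ± 0.04 with anastrozole (adjusted p = 0.076). The call with the combination was lost without vehicle a, vehicle c, combination b or combination c, and with DESeq2 and limma-voom. PLOD1 and PLOD3 had log2 fold changes against vehicle between -0.07 and 0.17, none of them called.

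LOX (chr5:121398890-121414108), which starts the crosslinking of secreted collagen, had the largest relative change among the processing genes that passed the test. Its level was 4.93, 3.35 and 3.66 CPM in vehicle, 6.35, 7.48 and 6.37 with anastrozole, 8.36, 6.91 and 8.47 with E2 and 7.65, 8.0 and 7.36 with the combination. No treated library overlapped vehicle. The log2 fold change was 0.75 ± 0.17 with anastrozole (adjusted p = 0.0015, edgeR), 0.99 ± 0.15 with E2 (adjusted p = 1.5e-08) and 0.95 ± 0.15 with the combination (adjusted p = 7.2e-08), and leaving out any single library kept all 3 calls, though limma-voom did not make that with anastrozole. These levels rest on 44 to 124 counts per library. SRFBP1 lies on the opposite strand over 2.47% of the exon bases of LOX. LOXL1 had a log2 fold change of 0.74 ± 0.28 with the combination (adjusted p = 0.11), LOXL2 had at most 7 counts in a library, and neither was called.

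SERPINH1, the collagen chaperone gene, and BMP1 did not pass the test against vehicle. SERPINH1 (chr11:75273101-75283828) counted 148, 133 and 138 CPM in vehicle, 134, 140 and 144 with anastrozole, 128, 132 and 129 with E2 and 146, 157 and 150 with the combination. The E2 libraries were below all vehicle libraries, with a log2 fold change of -0.11 ± 0.04 (adjusted p = 0.061, edgeR), and the values were 0.00 ± 0.05 with anastrozole (adjusted p = 1.0) and 0.11 ± 0.04 with the combination (adjusted p = 0.087). BMP1 averaged 8.34 ± 0.559 CPM in vehicle, 8.18 ± 1.21 with anastrozole, 9.25 ± 0.227 with E2 and 9.96 ± 0.455 with the combination (SD, n = 3). All E2 and all combination libraries were above the vehicle libraries, with log2 fold changes of 0.15 ± 0.13 (adjusted p = 0.53, edgeR) and 0.25 ± 0.12 (adjusted p = 0.25), and the value with anastrozole was -0.04 ± 0.14 (adjusted p = 0.98).

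Among the fibrillar collagens, 2 of 11 rose with E2 and with the combination, COL5A1 and COL27A1, both low in these cells. COL5A1 (chr9:137533649-137736689), a chain of type V collagen that helps start fibrils, lay at 1.70, 0.760 and 0.778 CPM in vehicle, 2.38, 1.52 and 1.92 with anastrozole, 3.63, 2.19 and 2.29 with E2 and 2.22, 2.99 and 2.07 with the combination. Library a was the highest in vehicle, anastrozole and E2, and the anastrozole libraries overlapped vehicle. The log2 fold change was 1.30 ± 0.28 with E2 (adjusted p = 0.00011, edgeR), 1.17 ± 0.28 with the combination (adjusted p = 0.0014) and 0.88 ± 0.32 with anastrozole (adjusted p = 0.11). The counts behind these values ran from 10 to 46 per library. Without combination library b, and with DESeq2, the call with the combination was lost, and limma-voom called neither. Its partner COL5A2 stayed at 9.58 ± 0.620 CPM in vehicle and 10.6 ± 1.72 with E2 (SD, n = 3), and the ratio of COL5A1 to COL5A2 per kilobase was 0.0899 ± 0.0399 in vehicle and 0.206 ± 0.0526 with E2.

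COL27A1 (chr9:116917817-117074791), a fibrillar chain best known from cartilage, was called against vehicle under all 3 treatments. It lay at 2.35, 1.45 and 2.49 CPM in vehicle, 3.68, 3.33 and 4.54 with anastrozole, 4.81, 3.13 and 3.26 with E2 and 3.95, 4.73 and 4.86 with the combination. All treated libraries were above all vehicle libraries. The log2 fold change was 0.88 ± 0.23 with anastrozole (adjusted p = 0.0079, edgeR), 0.81 ± 0.22 with E2 (adjusted p = 0.0032) and 1.10 ± 0.20 with the combination (adjusted p = 7.0e-06), on 19 to 68 counts per library. The calls with anastrozole and with E2 were lost without vehicle b, that with E2 also without E2 replicate a, and limma-voom made none of the 3.

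**Figure D3:**
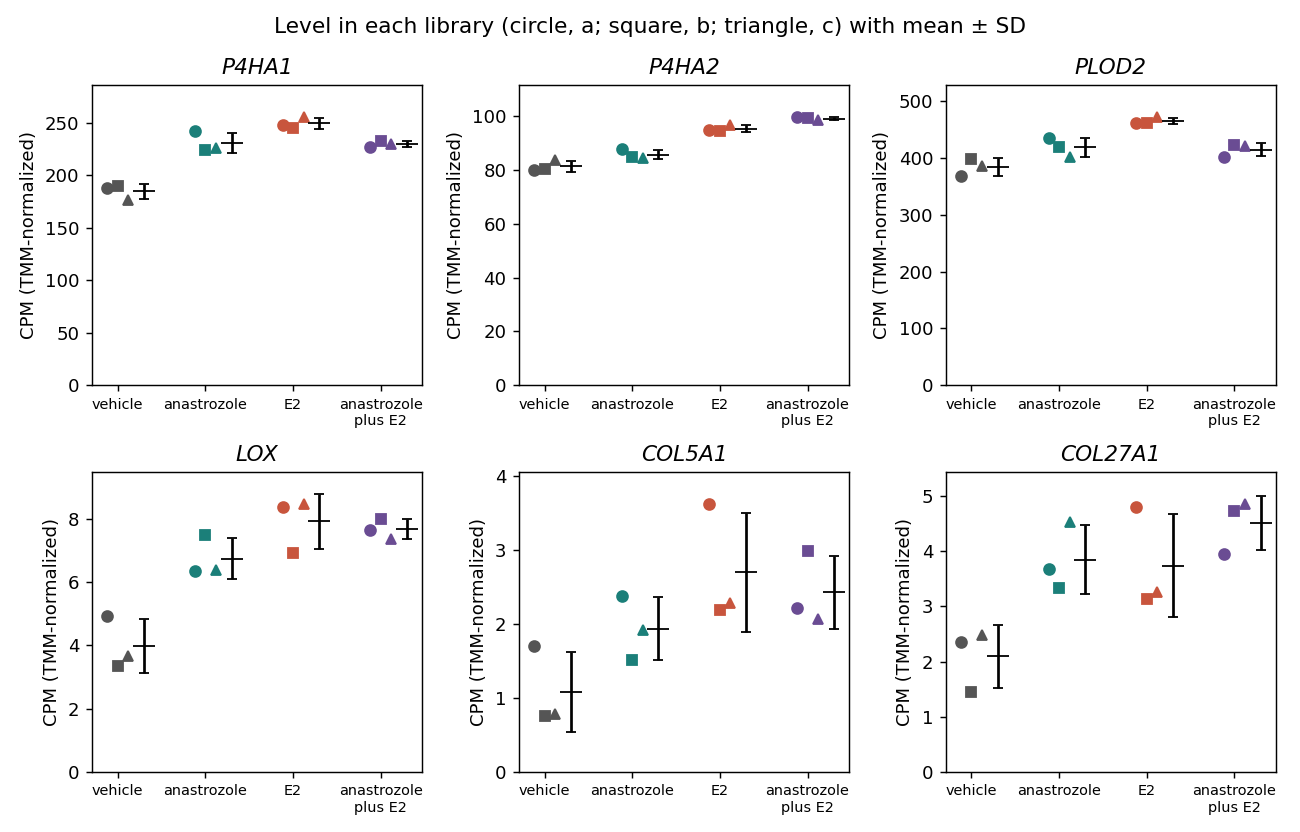
TMM-normalized CPM of P4HA1, P4HA2, PLOD2, LOX, COL5A1 and COL27A1 in each of the 12 libraries (circle, square and triangle mark replicates a, b and c), with the mean and SD of each group (n = 3); axes start at 0. All genes but COL5A1 lie above vehicle in all treated libraries, and COL5A1 overlaps vehicle with anastrozole. P4HA1 lies at 177 to 190 CPM in vehicle and at least 224 with treatment, while COL5A1 and COL27A1 lie under 5 CPM throughout.

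The abundant COL12A1 (chr6:75794042-75915983) moved little. Its level was 1051, 1146 and 1090 CPM in vehicle, 1093, 1088 and 1095 with anastrozole, 1161, 1190 and 1170 with E2 and 1069, 1192 and 1178 with the combination. The E2 libraries were above all vehicle libraries and the log2 fold change was 0.10 ± 0.03 (adjusted p = 0.0056, edgeR), a call lost without vehicle a, vehicle c or E2 replicate b and with limma-voom. With anastrozole the value was 0.00 ± 0.04 and with the combination 0.07 ± 0.03, neither called. Of the 9 network collagens, the 6 beaded filament and anchoring collagens, the 4 transmembrane collagens and the 4 multiplexins and others, 0 were called by edgeR in any of the 3 comparisons with vehicle. At an unadjusted p under 0.05 the network collagens held 0, 1 and 0 with anastrozole, E2 and the combination, the beaded and anchoring collagens 0, 2 and 2, the transmembrane collagens 0, 1 and 1 and the multiplexins 0, 1 and 1, and DESeq2 and limma-voom called 0 of each. With the GC trend removed, edgeR called COL6A1 and COL18A1 with anastrozole and COL6A2 with E2, as given below. COL4A5, the highest of the network collagens, averaged 87.4 ± 4.02 CPM in vehicle, 88.1 ± 1.58 with anastrozole, 84.5 ± 4.09 with E2 and 87.2 ± 5.27 with the combination (SD, n = 3). COL13A1, a transmembrane collagen with 1 to 13 counts that is named after its values were seen, had a log2 fold change of 1.42 ± 0.64 with E2 and 1.39 ± 0.62 with the combination, short of the threshold (adjusted p = 0.14 and 0.23, edgeR).

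With anastrozole and E2 together, compared with E2 alone, levels of P4HA1 and PLOD2 were lower and those of 4 other genes higher. With the GC trend removed only SERPINH1 of these genes was still called, as given below. In all 6 of 55 genes were called (10.9%), 4 higher and 2 lower, next to 6.74% of all genes (3.23% higher and 3.51% lower). P4HA1 fell by 0.12 ± 0.03 on the log2 scale (adjusted p = 0.0091, edgeR), with the combination libraries at 227 to 232 CPM all below the E2 libraries at 245 to 256, and this call was lost without E2 replicate c and in a fit of all 12 libraries. PLOD2 fell by 0.17 ± 0.03 (adjusted p = 1.3e-05), with all combination libraries (401 to 422 CPM) below all E2 libraries (461 to 472). SERPINH1 rose by 0.22 ± 0.04 (adjusted p = 1.0e-06) from 128 to 132 CPM with E2 to 146 to 157 with the combination. COL7A1, the anchoring fibril collagen, rose by 0.24 ± 0.05 (adjusted p = 0.00027), from 55.8, 54.6 and 56.4 CPM to 67.9, 63.6 and 64.5. COL18A1, the chain from which endostatin is cut, rose by 0.23 ± 0.05 (adjusted p = 0.0005), from 58.9, 53.9 and 55.8 CPM to 65.0, 66.6 and 65.1. COL1A1, the main chain of type I collagen, rose by 0.17 ± 0.04 (adjusted p = 0.0017), from 80.04, 90.7 and 89.3 CPM to 98.8, 94.6 and 99.9, and was not called without E2 replicate a or by limma-voom. Vehicle levels were 59.78 ± 0.806 CPM for COL7A1, 61.13 ± 4.09 for COL18A1 and 94.02 ± 2.17 for COL1A1 (SD, n = 3). All E2 libraries were below all vehicle libraries for COL7A1 and COL1A1, and overlapped them for COL18A1. Against vehicle the log2 fold changes with E2 were -0.11, -0.12 and -0.11 for COL7A1, COL18A1 and COL1A1. With the combination they were 0.13, 0.10 and 0.06, and none was called. In SERPINH1, COL7A1, COL18A1 and COL1A1 every combination library was above every E2 library. The same held for some genes that were not called, such as P4HB and COL6A1, and the share of all genes was not counted. Of the exon bases of COL18A1, 18.5% are shared with SLC19A1 on the opposite strand, and the counts of these 2 genes may not be fully separate. In the same comparison 4 of the 14 luminal markers (28.6%) were called higher by edgeR, KRT19, MUC1, SPDEF and TFF3. Of the 13 fibroblast and mesenchymal markers with counts, 1 (7.69%), TAGLN, was called higher. With the GC trend removed only MUC1 and TFF3 of these were called. The part of these markers in the collagen changes was not tested.

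The base composition of the transcripts is given beside these 6 changes. Over 10823 genes with GC content and sufficient level, the Spearman correlation of the log2 fold change with GC content was 0.69 for the combination against E2, -0.55 for E2 against vehicle, -0.53 for anastrozole against vehicle and -0.03 for the combination against vehicle; genes within a library share its composition and are not independent. Over the 33 collagen and processing genes with at least 3 counts in every library the same correlations were 0.28, 0.06, 0.02 and 0.25. The exons of PLOD2 have a GC content of 36.0% and those of P4HA1 40.2%, and both fell, whereas COL1A1 (59.5%), SERPINH1 (56.6%), COL7A1 (63.9%) and COL18A1 (66.8%) rose. With the GC trend of each library removed, 1 of 55 genes was called between the combination and E2, next to 0.88% of all genes. This was SERPINH1, at a log2 fold change of 0.15 with an adjusted p of 0.0058 by edgeR. The values became -0.04 for P4HA1, -0.06 for PLOD2, 0.08 for COL1A1, 0.08 for COL18A1 and 0.11 for COL7A1.

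Against vehicle, 5 genes with anastrozole, 7 with E2 and 8 with the combination were called with the GC trend removed, next to 2.91%, 7.53% and 6.02% of all genes. With E2 the values were 0.36 for P4HA1, 0.20 for P4HA2, 0.17 for PLOD2, 0.91 for LOX, 1.40 for COL5A1 and 0.90 for COL27A1, all called by edgeR, and 0.05 for COL12A1, which was not called (adjusted p = 0.26); COL6A2 was added (0.49, adjusted p = 0.027). With anastrozole P4HA1 kept 0.27, LOX 0.70 and COL27A1 0.97, and COL6A1 (0.33, adjusted p = 0.034) and COL18A1 (0.19, adjusted p = 0.022) were added. With the combination P4HA1, P4HA2, PLOD2, LOX, COL5A1 and COL27A1 were again called, and COL16A1 (0.36, adjusted p = 0.034) and SERPINH1 (0.12, adjusted p = 0.025) were added. COL6A1, COL6A2 and COL16A1 are named here after their values were seen.

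**Figure D4:**
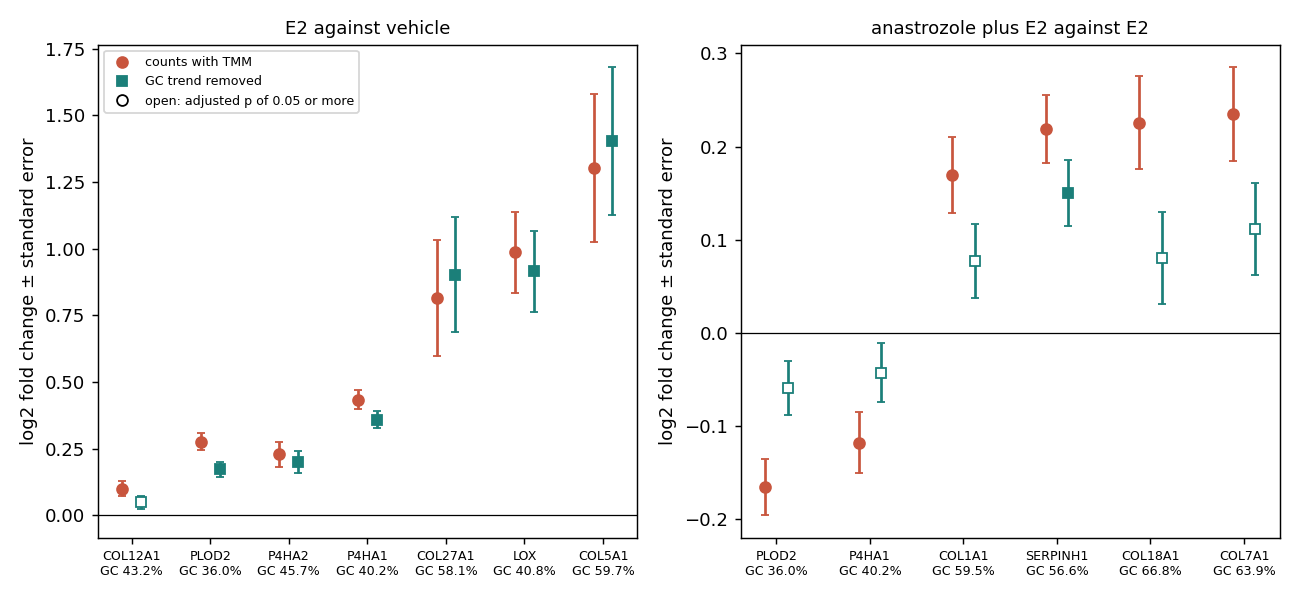
Log2 fold change (± standard error, edgeR) of the called genes for E2 against vehicle (left) and for the combination against E2 (right), from TMM-normalized counts (red circles) and with the GC trend of each library removed (green squares); open symbols have an adjusted p of 0.05 or more and the GC content of the exons stands under each gene. On the left only COL12A1 turns open, and on the right only SERPINH1 stays filled, at 0.15.

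Few of these genes were called in the other pairs. PLOD2 was the only gene of 55 called between anastrozole and E2 (1.82%, next to 1.33% of all genes), lower with anastrozole by a log2 fold change of -0.15 ± 0.04 (adjusted p = 0.014, edgeR), and this call was lost without anastrozole b or any of the 3 E2 libraries, and with DESeq2, limma-voom and the replicate block. Between the combination and anastrozole alone only P4HA2 was called (1.82%, next to 2.9% of all genes), at 0.21 ± 0.05 (adjusted p = 0.0049, edgeR), from 84.5 to 87.7 CPM with anastrozole to 98.5 to 99.7 with the combination. This call was lost without anastrozole b, combination b or combination c, and with limma-voom.

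Whether anastrozole acted differently with and without E2 was tested by the interaction over all 12 libraries, in which 7 of 55 genes were called (12.7%, next to 10.9% of all genes). P4HA1 had the smallest p: its log2 fold change with anastrozole was 0.32 against vehicle and -0.12 when added to E2 (-0.04 and not called with the GC trend removed), and the interaction was -0.44 ± 0.06 on the log2 scale (adjusted p = 4.2e-12, edgeR). It was called without any single library and, at -0.31, with the GC trend removed (adjusted p = 2.8e-08). LOX had an interaction of -0.79 ± 0.21 (adjusted p = 0.0042), since its level with both agents, 7.67 ± 0.321 CPM (SD, n = 3), was close to that with E2 alone, 7.91 ± 0.869. With the GC trend removed LOX had -0.66 (adjusted p = 0.054). PLOD2 had -0.29 ± 0.05 (adjusted p = 3.3e-06) and -0.11 with the GC trend removed (adjusted p = 0.16). The interaction was 0.25 for COL1A1, 0.23 for COL7A1, 0.22 for SERPINH1 and 1.80 for COL2A1. COL7A1 turned to -0.03 with the GC trend removed, SERPINH1 had 0.08, COL1A1 0.06 and COL2A1 1.60, and none of these 4 was called. In that setting 1 of the 55 genes was called next to 2.61% of all genes. COL2A1, the type II collagen chain of cartilage, was among the low chains, at 0.840 ± 0.30 CPM in vehicle, 0.588 ± 0.196 with anastrozole, 0.398 ± 0.140 with E2 and 0.991 ± 0.0748 with the combination (SD, n = 3), and its interaction had an SE of 0.64 (adjusted p = 0.046, edgeR).

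Genes that work with collagen were counted from lists drawn up with earlier results of these data known: other modifying enzymes and chaperones, procollagen export and trimming, receptors, breakdown with its inhibitors, and other matrix proteins, 83 genes with counts in all. With anastrozole 8 of the 83 were called (9.64%), 6 higher and 2 lower, with E2 16 (19.3%), 10 higher and 6 lower, and with the combination 10 (12.0%), 8 higher and 2 lower, next to 3.67%, 12.0% and 5.04% of all genes. The largest number came from the 23 enzymes and chaperones, of which 5, 6 and 4 were called. ERO1L, the oxidase that recharges protein disulfide isomerase, was at 324 ± 15.5 CPM in vehicle, 420 ± 17.2 with anastrozole, 471 ± 12.0 with E2 and 441 ± 7.71 with the combination (SD, n = 3). Its log2 fold changes of 0.37, 0.54 and 0.44 were called in each comparison by edgeR. The endoplasmic reticulum chaperones HSPA5 (0.15, 0.10 and 0.10) and HSP90B1 (0.20, 0.13 and 0.09) rose in each too, but with the GC trend removed the E2 values were 0.06 (adjusted p = 0.11) and 0.05 (adjusted p = 0.16). CANX, a lectin chaperone, rose with anastrozole and with E2 (0.13 each), and CALR fell by 0.12 with E2. FKBP14, a prolyl isomerase, rose with E2 (0.21) and FKBP10 with the combination (0.17), and PEPD, which recycles proline from collagen peptides, fell by 0.40 with anastrozole.

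The export genes MIA3 (0.16 and 0.15) and KLHL12 (0.17 and 0.14), which help load procollagen into large carriers, rose with anastrozole and with E2. FURIN fell by 0.28 with E2, SEC31A fell by 0.12 with the combination, and TLL2, a relative of BMP1 at under 1 CPM, rose with the combination (2.47 ± 0.64, adjusted p = 0.0048, edgeR). Of 13 receptors, the collagen receptor kinase DDR1 fell by 0.23 with E2, and GPR56, a receptor for type III collagen, fell by 0.17, 0.29 and 0.21 under the 3 treatments. ITGB1 rose with E2 (0.11) and MRC2, which takes up collagen for breakdown, with the combination (0.83). Of the 20 other matrix proteins, the laminin chain LAMB3 (0.46) rose and LAMA5 and LAMB2 fell by 0.28 and 0.16 with E2, and LAMB3 (0.53) and HSPG2 (0.19) rose with the combination. Of the 11 genes for collagen breakdown and its inhibitors 0 were called by edgeR in each comparison with vehicle, with 1, 3 and 3 at an unadjusted p under 0.05, and DESeq2 and limma-voom called 0 as well. With the GC trend removed, edgeR called the inhibitors TIMP1 (0.34, adjusted p = 0.034) and TIMP2 (0.13, adjusted p = 0.0012) with E2, both named after their values were seen. Of the calls in the 83 genes, 6 of 8 with anastrozole, 7 of 16 with E2 and 10 of 10 with the combination were kept with the GC trend removed, and 3, 6 and 1 were added. Lost were GPR56 and MIA3 with anastrozole, and CALR, FKBP14, FURIN, HSP90B1, HSPA5, ITGB1, KLHL12, LAMB2 and MIA3 with E2. FKBP10 was added with anastrozole and with E2, so that in this setting it was called higher under all 3 treatments.

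The other hypoxia-response genes formed a list of 24, apart from the collagen genes above, that was chosen with earlier results known. With anastrozole 12 of 24 were called (50.0%), with E2 20 (83.3%) and with the combination 19 (79.2%), all higher, next to 1.4%, 6.06% and 2.71% of all genes called higher. CA9, a carbonic anhydrase, went from 2.27 ± 0.291 CPM in vehicle to 4.43 ± 0.952 with anastrozole, 4.22 ± 0.179 with E2 and 4.28 ± 0.153 with the combination (SD, n = 3), with log2 fold changes of 0.95, 0.89 and 0.92. VEGFA, the endothelial growth factor, rose by 0.38, 0.39 and 0.36, and KDM3A, an oxygen-dependent histone demethylase, by 0.28, 0.32 and 0.26. With the GC trend removed 14, 19 and 19 of the 24 were called, all higher, among them 9, 18 and 19 of the first calls. ERO1L is in this list as well as among the enzymes. Whether these genes and P4HA1, P4HA2, PLOD2 and LOX moved for a shared reason was not tested.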

How the data were processed

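RNA of T47D cells in 12 libraries was sequenced by the authors, aligned to hg19 with TopHat2 2.0.14 and Bowtie2 2.2.6 and counted per gene with HTSeq, per the submitters' processing notes. The authors deposited these whole-number counts without normalization; the HTSeq version, strand setting and annotation are not given in the sources used here. The table's 5 summary lines, 66.5% to 67.3% of the reads of a library, were left out of library sizes and tests. Labels name poly(A) RNA as the molecule and total RNA in the library protocol, and 12 hours of treatment where the study's methods give longer.

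Groups came from the labels. In R 4.3.3, the 4238 genes with 0 counts were removed, and 21132 genes were tested with edgeR 4.0.16 (TMM, robust quasi-likelihood fit and F test, 2-sided, Benjamini-Hochberg, threshold 0.05) on the 6 libraries of each pair, or all 12 for the interaction; the SE is the size of the fitted log2 change over the root of F. CPM are TMM-normalized. Canonical transcript length, exon GC content and hg19 gene positions came from GENCODE 44 on GRCh37, matched by symbol or RefSeq synonym for all but 2338 of the 25370 genes (all 55 matched). The GC trend was a lowess fit (span 0.5) per library over genes with a mean log2 CPM of 3 or more, entered as offsets. Alternatives were DESeq2 1.42.0 (test or size factors), library size alone, filterByExpr, limma-voom (limma 3.58.1), a fit of all 12 libraries, a replicate block, GC removal with and without the block, and leaving out each library. The fits were tested on simulated data.

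Collagen and processing genes and all lists were chosen with earlier results of these data known. Full values are given for COL5A1, SERPINH1, P4HA1, every gene of the 55 past the threshold and the highest gene of a role; for partner lists, genes past the threshold against vehicle are named, except for a result that is not reported here. Intervals of counting error are not given, and 3 counts mark the floor, which covers counting error only because reads had no molecular identifiers. Genes overlapping on opposite strands may share counts if strand was not used.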

Additional observations from a re-analysis of the deposited data

Results flagged for a closer look

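The change with anastrozole differed between cells without and with E2, by edgeR's interaction test over the 12 libraries, in 7 of the 55 genes (12.7%), near the 10.9% of all genes tested. The interactions on the log2 scale were -0.44 for P4HA1, -0.29 for PLOD2 and -0.79 for LOX, and 0.25 for COL1A1, 0.23 for COL7A1, 0.22 for SERPINH1 and 1.80 for COL2A1. The value for COL2A1 rests on 3 to 15 counts per library (adjusted p = 0.046) and was called in 2 of 12 fits without a library, and that for COL7A1 in 3 of 12. P4HA1, PLOD2 and LOX were called in each of the 12, COL1A1 in each but that without E2 replicate a, and SERPINH1 in each but that without vehicle a. Over all genes the interaction correlated with GC content at 0.71 (Spearman, 10823 genes) and over 33 of the collagen and processing genes at 0.09, and P4HA1 was the only 1 of the 7 called with the GC trend removed, when COL7A1 turned to -0.03.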

How the results depend on the processing

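The number of the 55 genes called, given as 3 with anastrozole, 7 with E2 and 6 with the combination against vehicle, 1 for anastrozole against E2, 6 for the combination against E2, 1 for the combination against anastrozole and 7 for the interaction, stayed within 1.5 times these under DESeq2 size factors, library size alone, filterByExpr and a fit of all 12 libraries. The DESeq2 test called 1 with anastrozole, 4 with E2, 0 for anastrozole against E2 (5 at an unadjusted p under 0.05) and 4 for the interaction, and it gave no adjusted p for 7 of the calls reported, among them LOX and COL5A1 with E2. The limma-voom test called 0 with anastrozole (7 unadjusted), 4 with E2, 3 with the combination, 0 for anastrozole against E2 (6 unadjusted) and 0 for the combination against anastrozole (9 unadjusted). With the GC trend removed the counts were 5 with anastrozole, 2 for anastrozole against E2, 1 for the combination against E2, 2 for the combination against anastrozole and 1 for the interaction. Without each library in turn they ran from 2 to 4 with anastrozole, 6 to 9 with E2, 4 to 9 with the combination, 0 to 3 for anastrozole against E2, 5 to 7 for the combination against E2, 0 to 5 for the combination against anastrozole and 4 to 9 for the interaction.

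The letters a, b and c were not taken as pairs, since no comparison had all 3 same-letter correlations of deviations over 0.1 (they ran from -0.141 to 0.324), and not every library correlated best with its own letter. The replicate block gave 0 for anastrozole against E2 (8 unadjusted). With the GC trend removed and the replicate block, the counts were 5 with anastrozole, 10 with the combination against vehicle, 1 for the combination against E2, 2 for the combination against anastrozole and 2 for the interaction. Only the interaction of COL7A1 reversed, to -0.026 with the GC trend removed and -0.027 with the block as well. Of 31 single-gene calls, 12 were lost with the GC trend removed and 13 with limma-voom. The replicate block lost 2 of the 31, among them PLOD2 for anastrozole against E2. Causes were not tested. Depth limits the chains under about 10 counts per library.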
